A study of Mus musculus with 12 samples.

Results

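The comparison described here sets the stroma of colorectal tumors against the tumor tissue itself in mice whose myeloid cells lack Stat3. It used 6 of the 12 samples of the series, the 3 labelled Stat3dm stroma and the 3 labelled Stat3dm tumor. Every mouse of the series, wild type or Stat3dm, had received azoxymethane and dextran sulfate (AOM/DSS), a carcinogen and a gut irritant that together give inflammation-driven colon tumors. Stat3dm stands for mice in which Stat3 was deleted conditionally from myeloid cells. Neither the driver of the deletion nor the age of the mice is stated in the labels. A sample combined 2 tumors from 1 mouse, whose epithelial and stromal areas were cut apart by laser-capture microdissection from paraffin-embedded tissue, and 50 ng of its RNA were labelled for 1 array. The labels do not say whether the tumor and the stroma sample of the same number came from the same mouse. The 3 wild type stroma and 3 wild type tumor samples served to estimate the spread and to ask whether the tissue difference depended on the genotype. A gene was represented by the probe set with 1 gene symbol and the highest mean over the 12 arrays. Of 22180 genes, 16635 remained after the dimmest were left out, and all of these were tested.

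The stroma of a colon tumor is the connective tissue between and around the epithelial glands. It holds fibroblasts, vessels and most of the infiltrating leukocytes, while the tumor compartment is mainly transformed epithelium. STAT3 is a transcription factor that carries signals of interleukin-6, interleukin-10 and related cytokines to the nucleus, and in macrophages and neutrophils it restrains inflammatory gene expression. Mice without Stat3 in these cells are known for chronic gut inflammation.

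Values are log2 array signals, on which a step of 1 is a doubling, and a log2 difference is the mean of the 3 stroma samples minus the mean of the 3 tumor samples. Stat3 itself had values of 7.35, 7.32 and 7.40 in deletion stroma 1, 2 and 3, and of 7.08, 7.28 and 7.97 in deletion tumor 1, 2 and 3. In wild type it had 6.72, 7.33 and 8.02 in stroma and 7.48, 7.43 and 8.22 in tumor. The deletion values lay inside the range of the wild type values. Which part of the gene the probe set reads is not given, and the samples hold cells other than myeloid cells, so these values do not check the deletion. The log2 difference of Stat3 between deletion stroma and tumor was -0.09 ± 0.32 (SE, n = 3 against 3, limma adjusted p = 0.972).

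The tissue labels were checked against epithelial genes first. The median over 24 epithelial genes, each centred on its mean over the 12 arrays, was 0.05, 0.43 and 0.79 in deletion tumor 1, 2 and 3 and 0.08, -1.12 and -0.32 in deletion stroma 1, 2 and 3. Deletion stroma 1 therefore carried epithelial genes at the level of deletion tumor 1, with 14 of the 24 genes higher in stroma 1 than in tumor 1 and 0 of 24 higher in the other 2 pairs of equal number. The same sample was the highest of the 3 stroma samples for 12 of 13 neutrophil genes and for 19 of 28 chemokines, with a neutrophil median of 1.47 against 0.04 and -0.20 in stroma 2 and 3. For some lists the median without this sample is given below. For others it is not printed, which does not mean that the sample had no part. The T cell median, for instance, was 0.77 without deletion stroma 1 and 0.64 with all samples. Deletion tumor 1 was low for stem cell and Wnt target genes, at -0.94 against 0.13 and 0.53 in tumor 2 and 3.

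No gene passed an adjusted p of 0.05 in limma's fit of 4 group means over the 12 arrays, that is 0% of 16635 genes. At an unadjusted p under 0.05, 678 genes (4.08%) were higher and 932 (5.6%) lower in stroma, together 1610 (9.68%). The 3 stroma values lay wholly above the 3 tumor values for 1093 genes (6.57%) and wholly below for 1191 genes (7.16%), together 2284 (13.7%). The log2 difference was above 0 for 45.5% of the genes, with a median of -0.03. With the sample number kept as a replicate block within each genotype, 152 genes (0.914%) passed the adjusted threshold, 109 (0.655%) higher and 43 (0.258%) lower. Some of the 109, among them Cd86, Clec12a, Mir142 and Olfr452, were kept by the filter on dim genes only through deletion stroma. Their passing supports nothing, and how many of the 109 this holds for was not counted. These blocked calls rest on deletion pair 2, since 0 genes passed without it, against 843 without pair 1 and 36 without pair 3. They also rest on a pairing by number that the labels do not give and that was taken from these same values. Equally numbered deletion samples correlated at only 0.12, 0.16 and 0.30, and deletion tumor 1 correlated equally with stroma 2. The block paired the wild type samples by number as well. Every gene said below to have passed with the block depends on this pairing by number. An exact permutation test of 3 against 3 samples cannot go below a two-sided p of 0.1, and the p-values measure the spread between these samples only. In tissue of mixed cells, fewer cells of a type and less RNA per cell cannot be told apart.

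**Figure D1:**
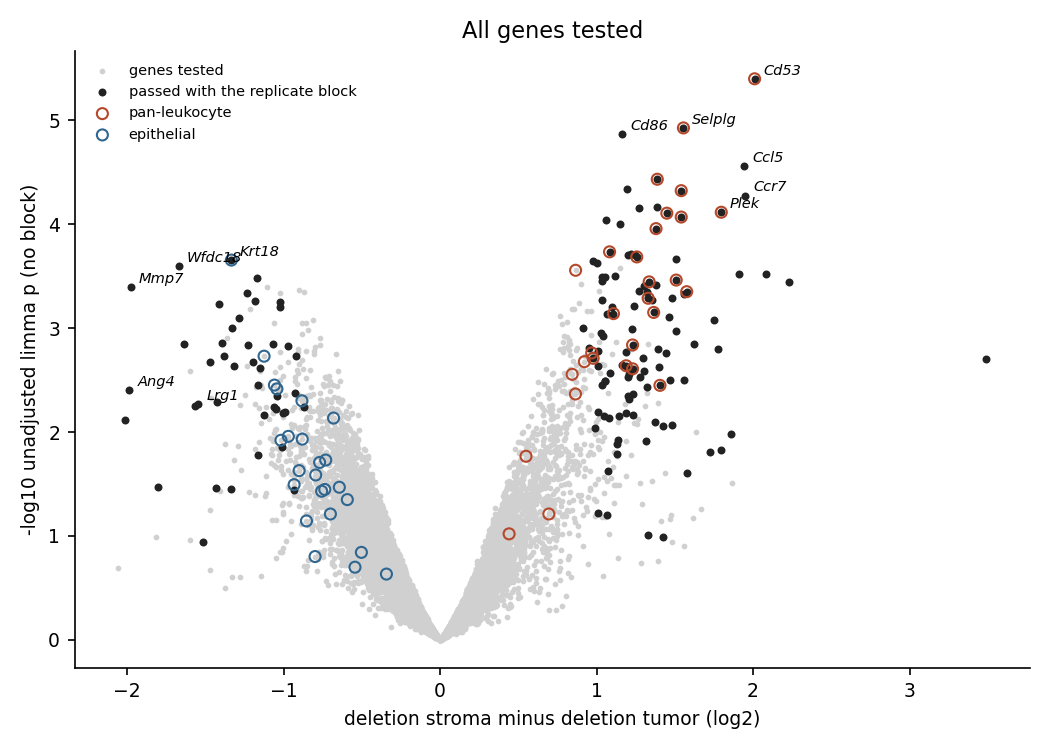
Each point is 1 of 16635 genes, placed by its log2 difference, deletion stroma minus deletion tumor, and by the negative log10 of its unadjusted limma p, with black points for the genes that passed with the block. Pan-leukocyte genes gather at the upper right, led by Cd53 at 2.01, and epithelial genes lie left of 0.

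Genes shared by nearly all leukocytes had the largest median difference of the lists. The members of this and the other lists were chosen with earlier results of these data known. Their counts beside the shares of all genes are therefore a description and not a test. The pan-leukocyte list held 31 genes, of which 29 were tested, and all 29 were higher in deletion stroma, with a median log2 difference of 1.26. In 27 of the 29 the stroma and tumor samples did not overlap, against 6.57% of all genes, and the same number had an unadjusted p under 0.05, against 4.08%. With the block 21 passed, against 0.655%. Over the leave-one-out fits the median of the list stayed between 1.14 and 1.34, and it was 1.34 without deletion stroma 1. The exceptions to non-overlap were Vav1 and Sash3, both signalling proteins of lymphocytes, at 0.70 and 0.44.

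The smallest p was that of Cd53, a tetraspanin of the leukocyte surface. Its values were 7.38, 6.71 and 6.62 in deletion stroma 1, 2 and 3 and 5.05, 4.60 and 5.03 in deletion tumor 1, 2 and 3. The lowest stroma sample stood above the highest tumor sample by more than the range of either group. The log2 difference was 2.01 ± 0.28 (SE, 95% interval 1.41 to 2.61), a 4.03-fold difference, with a limma adjusted p of 0.066 over all genes. With the block the adjusted p was 0.0024, and over 27 alternatives it ran from 0.000418 to 0.475 and passed in 11.

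Plek, the cytoskeletal adaptor pleckstrin of platelets and leukocytes, had 7.22, 5.72 and 5.97 in stroma and 4.70, 4.23 and 4.59 in tumor. Deletion stroma 1 was the high sample of this gene, and its log2 difference of 1.80 was 1.34 at the lowest when 1 sample was left out. Laptm5, a lysosomal membrane protein of blood cells, had 7.76, 8.30 and 7.88 in stroma and 6.37, 6.47 and 6.48 in tumor, a log2 difference of 1.54. The 3 tumor samples of Laptm5 lay between 6.37 and 6.48, and all stroma samples stood clear of them. Both genes passed with the block.

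Promoters of these genes are shown because the leukocyte genes moved together and because many of them are known targets of PU.1, the master regulator of myeloid and B cell genes, whose binding site is the PU box. RefSeq promoter windows on GRCm38.p6, from 250 bases before to 50 bases after the start, were searched on both strands for the letters GAGGAA. They were present in 28.3% of 32851 windows of all genes, in 15 of 30 windows (50%) of 22 pan-leukocyte genes and in 8 of 22 windows (36.4%) of 18 epithelial genes. Of the 8 pan-leukocyte genes with the smallest p, Selplg and Itgb2 had no entry, Coro1a and Hcls1 had no match and Arhgdib had a match in 1 of 3 windows. The 120 bases before the start of the other 3 genes are given 5′ to 3′ on the strand of the gene, with the match in capitals. The match begins 39, 61 and 38 bases before the start of Cd53, Plek and Laptm5, and in the last 2 it lies on the opposite strand, so it reads TTCCTC. A match of letters is a description of the sequence, and neither binding nor regulation by PU.1 was measured here.
Cd53, chr3:106790150-106790269, minus strand: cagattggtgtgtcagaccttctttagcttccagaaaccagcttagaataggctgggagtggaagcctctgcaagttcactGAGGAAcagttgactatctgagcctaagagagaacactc
Plek, chr11:17008719-17008838, minus strand: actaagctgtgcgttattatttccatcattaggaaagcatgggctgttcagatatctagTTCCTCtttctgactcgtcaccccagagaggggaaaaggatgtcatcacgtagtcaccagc
Laptm5, chr4:130913196-130913315, plus strand: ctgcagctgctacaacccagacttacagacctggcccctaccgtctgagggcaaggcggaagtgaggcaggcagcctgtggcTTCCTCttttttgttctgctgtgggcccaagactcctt

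Spi1, which encodes PU.1, was looked up for this reason after the values had been seen. It had 6.84, 6.94 and 6.68 in deletion stroma and 5.58, 6.02 and 5.86 in deletion tumor, a log2 difference of 1.00, and passed with the block. The stroma samples of Spi1 lay close together and all above the tumor samples. Whether PU.1 had a part in the difference of the leukocyte genes was not tested.

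Ptprc, the common leukocyte antigen CD45, had values of 6.81, 7.47 and 7.01 in stroma and 5.16, 5.49 and 5.91 in tumor, a log2 difference of 1.58 ± 0.35 (SE). Selplg, the ligand by which leukocytes roll on P-selectin, had 8.15, 8.83 and 8.05 against 6.48, 6.80 and 7.09, or 1.56 ± 0.24. Itgb2, the shared beta chain of the leukocyte integrins, had 8.32, 7.92 and 7.70 against 6.30, 6.21 and 6.81, or 1.54 ± 0.27. None of the 3 had overlapping groups, and each passed with the block. The actin regulators Coro1a and Hcls1, of leukocyte migration and antigen receptor signalling, stood at 1.39 and 1.38. Lcp2, Rac2, Cd48, Cd52, Tyrobp, Cd37, Lcp1, Inpp5d, Lsp1, Fcer1g, Dock2 and Srgn also passed with the block, with log2 differences from 0.98 (Lsp1) to 1.51 (Cd48). Among the 3 stroma samples, stroma 2 was the highest for 20 of the 29 genes, stroma 1 for 5 and stroma 3 for 4.

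**Figure D2:**
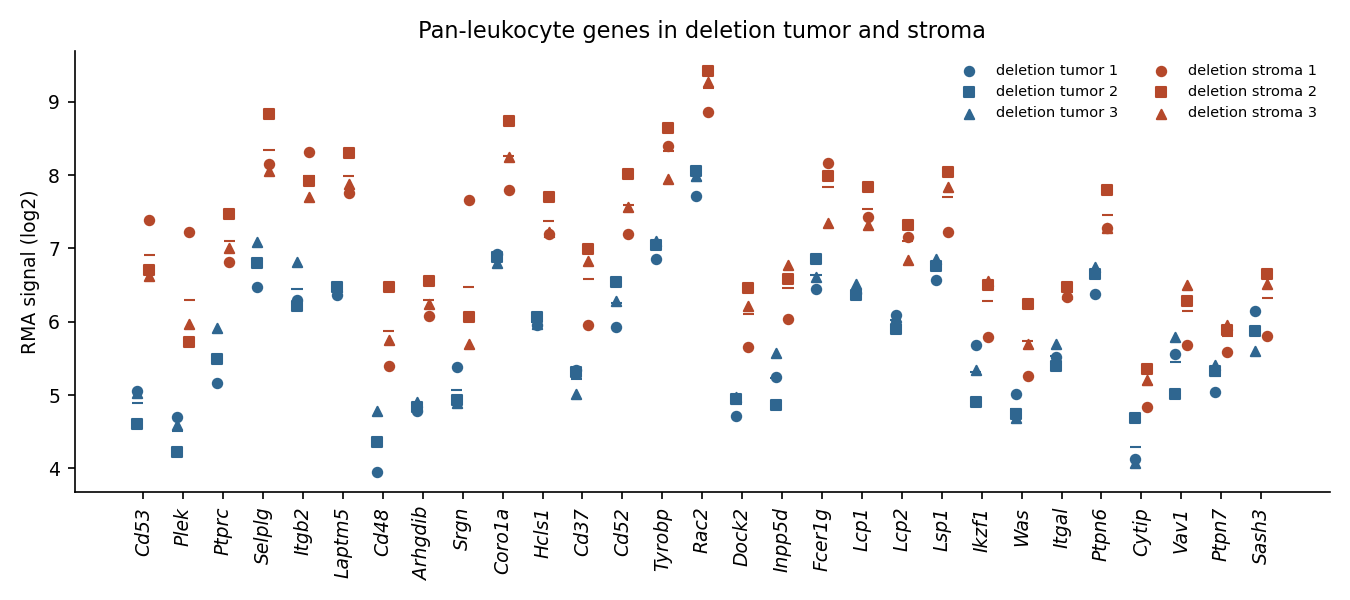
Log2 values of pan-leukocyte genes in the 3 deletion stroma and 3 deletion tumor samples, 1 point a sample, with the group means as bars. In Cd53 the stroma points sit between 6.62 and 7.38 and the tumor points between 4.60 and 5.05.

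The leukocyte classes were listed separately, and differences among them were not tested. On the leukocyte and immune lists together, 44 of 214 distinct genes tested (20.6%) passed with the block as higher in stroma, against 0.655% of all genes, and 0 passed as lower. The 44 include Cd86, which was kept by the filter only through deletion stroma. Interferon-gamma and STAT3 target genes are not among the 214. The median log2 difference was largest for macrophages and monocytes at 1.08 and for B cells at 0.90, and smallest for mast cells at 0.14 and eosinophils at 0.03. For the counts that follow, 45.5% of all genes were above 0, 6.57% wholly higher in stroma, 4.08% higher at an unadjusted p under 0.05 and 0.655% higher with the block. Lists share members where a gene serves several cell types, and Cd86, Ccr2, Ccr7, Ccl22, Itgam and Cxcr5 each stand on more than 1.

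**Figure D3:**
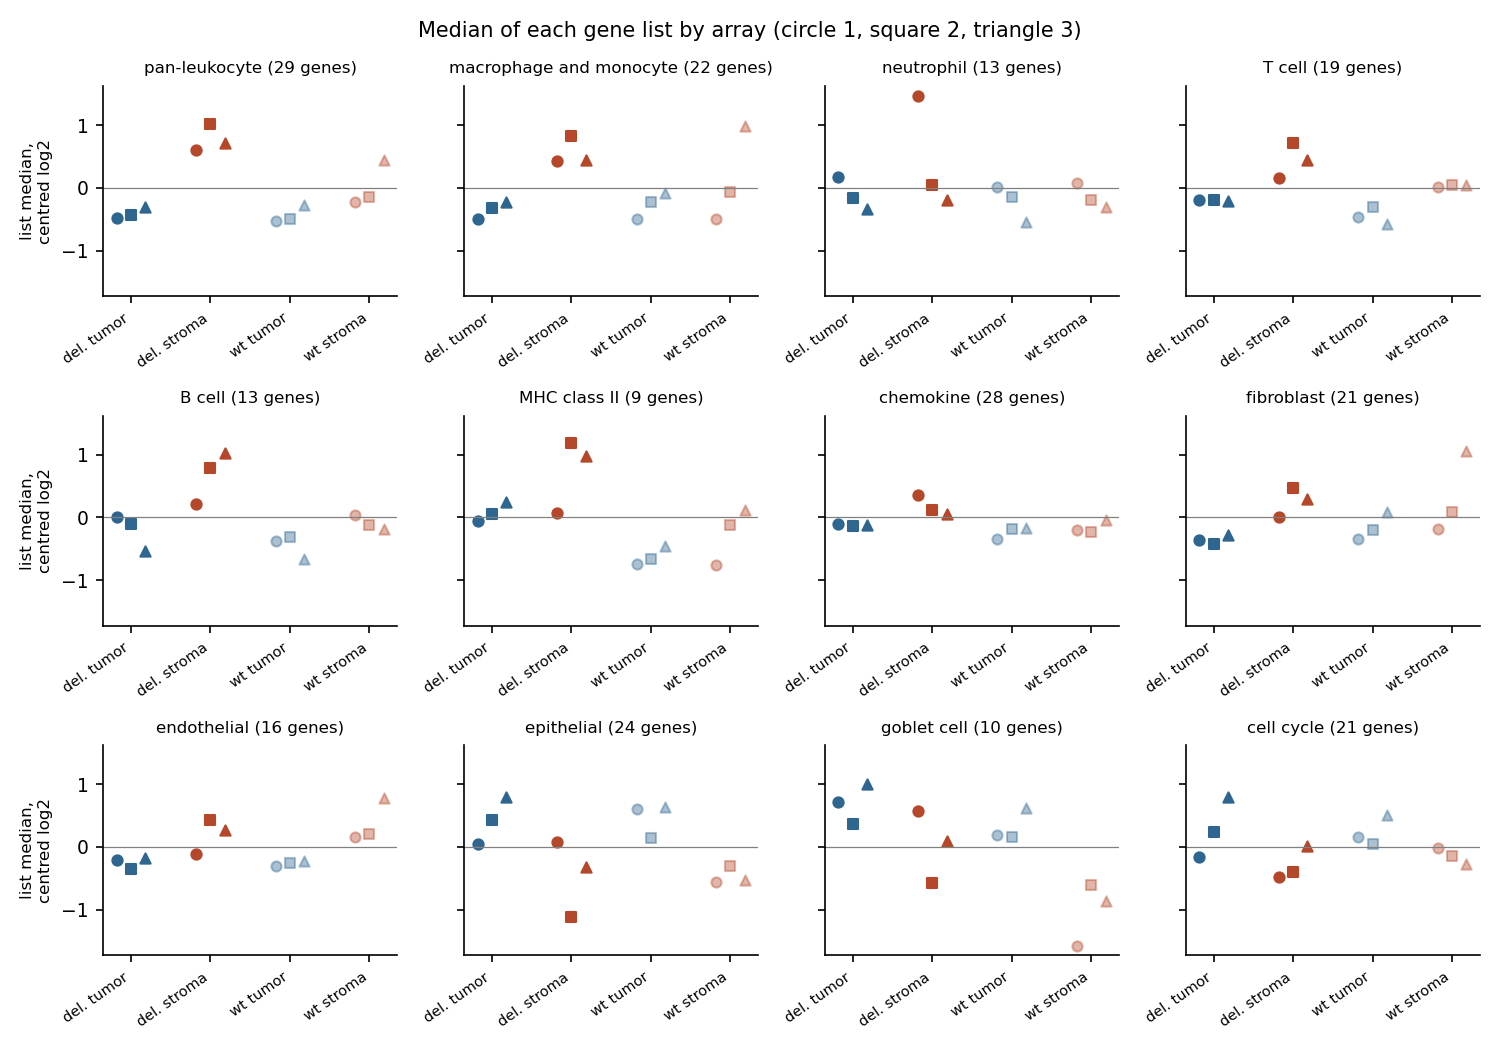
For each of 12 gene lists and each of the 12 samples (del., deletion; wt, wild type), the median over the list's tested genes of the log2 value centred on the gene's mean over the arrays. The pan-leukocyte values of deletion stroma are 0.60, 1.01 and 0.72 and those of deletion tumor -0.48, -0.44 and -0.31, and the epithelial value of deletion stroma 1 is 0.08.

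For macrophages and monocytes all 22 genes tested were higher in deletion stroma, 17 without overlap between the groups (6.57% of all genes), 16 at an unadjusted p under 0.05 (4.08%) and 11 with the block (0.655%). These counts include Cd86, which was kept by the filter only through deletion stroma. Ccr2, the receptor that brings monocytes out of the blood, had 5.14, 5.57 and 5.32 in stroma and 4.02, 4.20 and 4.36 in tumor, a log2 difference of 1.15 ± 0.22 (SE). Cd68, an endosomal glycoprotein of macrophages, had 7.67, 8.27 and 7.80 against 6.39, 6.66 and 6.86. Adgre1, which encodes the F4/80 antigen, had 5.96, 6.26 and 6.31 against 4.46, 5.04 and 5.41. The groups were apart in all 3 genes, at log2 differences of 1.15, 1.28 and 1.20, and tumor 1 was the lowest tumor sample in each. Csf1r, the receptor for the macrophage growth factor, stood at 1.14, the integrin chain Itgam (CD11b) at 1.31 and the Fc receptors Fcgr2b and Fcgr3 at 1.24 and 1.08. The protease Ctss, the complement gene C1qa and the pore-forming protein gene Mpeg1 stood at 1.13, 1.13 and 1.07. All of these passed with the block. The list was not uniform: Lyz2, encoding lysozyme M, had 5.17, 4.60 and 3.69 in stroma and 4.18, 4.62 and 4.33 in tumor. Cd14, the lipopolysaccharide co-receptor, had 8.44 in deletion stroma 1 but 5.98 and 6.24 in stroma 2 and 3, against 6.22, 6.81 and 7.16 in tumor.

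Outside that list, 2 genes of myeloid cells were among the 12 largest positive differences. Lilrb4a, an inhibitory receptor, had 8.23, 7.08 and 6.83 in stroma and 5.46, 5.08 and 5.85 in tumor, a log2 difference of 1.91. Cybb, the catalytic chain of the phagocyte NADPH oxidase, had 7.36, 7.12 and 6.87 against 5.75, 5.05 and 5.87, a difference of 1.56. Neither gene had overlapping groups, deletion stroma 1 was the highest sample of both, and both passed with the block.

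Of 13 neutrophil genes 11 were higher in deletion stroma, but 1 had groups apart, a share near the 6.57% of all genes, and 0 passed with the block. At an unadjusted p under 0.05 there were 4, against 4.08% of all genes. The one without overlap was Csf3r, the receptor for granulocyte colony-stimulating factor, with 6.45, 5.99 and 5.82 against 5.61, 5.23 and 5.10. The alarmin S100a9 had 9.73, 7.01 and 6.97 in stroma and 7.41, 7.31 and 7.50 in tumor. Retnlg, a granulocyte resistin-like factor, had 7.06, 4.22 and 3.61 against 3.75, 3.77 and 3.50. In both genes deletion stroma 1 alone stood high. The median of the list was 0.50, and it was -0.01 without deletion stroma 1, 0.82 without deletion stroma 2 and 0.90 without deletion stroma 3. The median of the list thus turned on 1 sample, while Csf3r, Fpr2 and Il1r2 stayed at 0.59, 0.66 and 0.59 or more whichever sample was left out.

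Among 12 dendritic cell genes 9 were higher in stroma, with a median of 0.28, or 0.17 without deletion stroma 2. Ccl22, a chemokine of mature dendritic cells, had 5.90, 7.55 and 6.93 in stroma and 4.82, 5.29 and 5.60 in tumor, and was the only member to pass with the block. Itgax (CD11c) and the actin-bundling protein gene Fscn1 had no overlap, at 1.18 and 0.80. Genes of conventional type 1 cells, Xcr1 and Batf3, stood at -0.07 and 0.24. For 10 mast cell genes the median was 0.14, from 0.02 without deletion tumor 3 to 0.21 without deletion tumor 1, with 0.05 without deletion stroma 2, and 0 had an unadjusted p under 0.05. The 3 eosinophil genes had a median of 0.03, which ran from -0.08 without deletion tumor 3 to 0.18 without deletion stroma 3.

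T cell genes were higher in stroma for 18 of the 19 tested, with a median of 0.64, and 12 had groups apart. The same number had an unadjusted p under 0.05, and Ccr7 and Thy1 passed with the block. Ccr7, which guides naive and central memory T cells and mature dendritic cells to lymph nodes, had 5.15, 6.78 and 5.97 in stroma and 4.25, 4.03 and 3.77 in tumor. Its log2 difference was 1.95 ± 0.34 (SE), and deletion stroma 2 was its high sample. Il7r, the receptor for the survival cytokine interleukin-7, had 5.50, 5.77 and 5.42 against 4.56, 4.43 and 4.25, or 1.15. The T cell receptor chains Cd3d, Cd3g and Cd3e stood at 0.92, 1.19 and 0.92, and the signalling adaptor Lat at 1.10. Cd4 and Cd8a both stood at 0.46, with overlap for Cd4 and none for Cd8a. Foxp3, the factor of regulatory T cells, had 5.72, 6.56 and 6.78 in stroma and 5.78, 5.64 and 5.45 in tumor, so that stroma 1 fell among the tumor samples. The single T cell gene below 0 was Bcl11b, at -0.17.

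Genes of cytotoxic lymphocytes had a smaller median. Of 10 tested, 8 were above 0 (45.5% of all genes), 3 wholly higher (6.57%) and 1 wholly lower in stroma (7.16%), and 0 passed with the block. At an unadjusted p under 0.05, 1 was higher and 1 lower, against 4.08% and 5.6%. Prf1, encoding perforin, was the lower one, with 4.70, 4.85 and 4.63 in stroma and 5.27, 5.23 and 4.93 in tumor, a log2 difference of -0.42. Ctsw, a protease of killer cells, was the largest at 0.59. Ifng stood at 0.55, with 5.07 in deletion stroma 1 against 3.84 and 4.03 in the other stroma samples. The median of the list was 0.31, and 0.15 without deletion stroma 1 or 0.11 without deletion tumor 3.

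Of 13 B cell genes 12 were higher in stroma, with a median of 0.90, and 1.02 without deletion stroma 1. Groups were apart in 7, and 10 were higher and 1 lower at an unadjusted p under 0.05. Cd79a, a signalling chain of the B cell receptor, had 4.99, 6.79 and 6.91 in stroma and 4.68, 4.80 and 3.96 in tumor, a log2 difference of 1.75 ± 0.42 (SE). Its low stroma sample was stroma 1, which lay barely above the tumor range. Cd22, an inhibitory co-receptor, had 4.79, 5.36 and 6.03 against 4.35, 4.29 and 4.34, or 1.06, and both passed with the block. Pou2af1, a transcriptional coactivator of B cells, stood at 1.30, and Cxcr5, the receptor that draws B cells into follicles, at 0.94. Blnk, an adaptor, was the member below 0, at -0.54.

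Of 6 plasma cell genes 5 were above 0. Jchain, the joining chain of secreted antibodies, had 8.50, 8.19 and 9.29 in stroma and 5.99, 6.82 and 7.78 in tumor, a log2 difference of 1.79, and passed with the block. Mzb1, a chaperone of antibody secretion, stood at 0.80 without overlap. The immunoglobulin heavy chain gene Ighm, read by the brightest of its 7 probe sets, had 11.23, 11.94 and 11.75 in stroma and a tumor mean of 9.87 ± 0.19 (SD, n = 3). Iglv1, a light chain variable segment, had 6.73, 6.27 and 7.44 against 4.50, 4.36 and 4.89. Both stood apart between the tissues, at 1.77 and 2.23, and passed with the block. Segments were left out of the ranking of named genes, because near-identical copies can share probes, and those given here were picked with their values known.

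The 9 MHC class II genes, which present antigen to CD4 T cells, were all above 0, with a median of 0.76. H2-Ab1 had 10.82, 11.21 and 11.02 in stroma and 10.10, 10.17 and 10.19 in tumor. H2-Eb1 and H2-Aa had groups apart as well, at 0.90 and 0.98, against 0.86 for H2-Ab1, and 0 of the 9 passed with the block. H2-Oa, a modulator of peptide loading in B cells, had 4.80 in stroma 1 but 6.76 and 6.74 in stroma 2 and 3. The median was 1.10 without deletion stroma 1 and 0.48 without deletion stroma 3. The list's centred median in deletion stroma was 0.07, 1.18 and 0.97, so stroma 1 was near the tumor samples at -0.06, 0.05 and 0.24.

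Chemokines attract leukocytes, and some were higher in all 3 stroma samples and some in deletion stroma 1 alone. Of 28 tested, 21 were above 0 and 7 below, 10 had groups apart, 7 were higher at an unadjusted p under 0.05 and 3 passed with the block. Ccl5, made by T cells, killer cells and macrophages, had 9.44, 8.52 and 8.39 in stroma and 7.30, 6.78 and 6.44 in tumor, a log2 difference of 1.94 ± 0.32 (SE). Cxcl13, the ligand of Cxcr5, had 6.32, 7.46 and 7.68 against 6.07, 5.38 and 5.81, or 1.40. The stroma samples of Ccl5, Cxcl13 and Ccl22 were all above the tumor samples, and these were the 3 that passed. By contrast Ccl3 had 10.16 in deletion stroma 1 and 5.96 and 5.41 in stroma 2 and 3, against 5.39, 5.83 and 5.48 in tumor. Cxcl2, a neutrophil attractant, had 9.06, 5.03 and 5.28 against 6.15, 5.56 and 5.61. Cxcl1, of the same function, had 8.37, 5.27 and 5.77 against 6.26, 6.27 and 6.76. In Cxcl1 and Cxcl2 stroma 2 and 3 were below every tumor sample. The median of the list was 0.65, and 0.20 without deletion stroma 1.

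Of 14 chemokine receptors 12 were above 0, with a median of 0.63, and 6 had groups apart. Cxcr6, of tissue-resident T cells, had 5.19, 6.04 and 5.85 in stroma and 3.82, 4.25 and 4.50 in tumor, a log2 difference of 1.51. Cxcr4, the receptor of the stromal chemokine Cxcl12, had 6.94, 7.34 and 7.23 in stroma and at most 6.23 in tumor, or 1.04. Both passed with the block, as did Ccr7 and Ccr2. Cxcl12 had 7.48, 8.68 and 8.20 against 6.54, 7.06 and 7.36, or 1.14 without overlap. Ligand and receptor were thus higher in the same samples for Cxcl12 with Cxcr4 and for Cxcl13 with Cxcr5.

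Of 15 checkpoint and costimulation genes all were above 0, with a median of 0.62, and 8 had groups apart. Cd86, the ligand of Cd28 and Ctla4 on antigen-presenting cells, had 4.55, 4.74 and 4.46 in stroma and 3.48, 3.28 and 3.51 in tumor, a log2 difference of 1.16. All 3 tumor values lie under 3.65, the limit for dim genes, and without deletion stroma the mean of Cd86 is 3.64, so it was tested only through the group where it is high. Of 418 list and named genes tested, this holds for 1 other, the eosinophil gene Prg2. Cd274, encoding PD-L1, had 7.59, 6.11 and 6.06 against 5.63, 5.18 and 5.36, or 1.20, with stroma 1 high. Both passed with the block, which for Cd86 supports nothing for the reason given. Icos and Pdcd1lg2, a costimulator of T cells and the gene of PD-L2, stood at 0.77 and 0.72 without overlap. Pdcd1, encoding PD-1, had 4.08, 5.54 and 5.06 against 5.29, 4.76 and 4.42, a difference of 0.07.

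All 14 adhesion genes were above 0, with a median of 0.83, and 9 had groups apart, 10 an unadjusted p under 0.05 and 4 the block's threshold. Beside Selplg, Itgb2 and Itgam this was Selp, encoding P-selectin of activated endothelium and platelets, with 6.12, 6.45 and 5.93 against 4.67, 5.20 and 5.05. The P-selectin gene and the gene of its ligand were therefore both higher in every stroma sample. Madcam1, the gut vascular addressin, was at 0.12, with 5.23 in stroma 1 and 6.45 and 6.57 in stroma 2 and 3. Of 15 leukocyte signalling genes 13 were above 0, with a median of 0.69 and 10 with groups apart, and 0 passed with the block. Dok3, Plcg2, Pik3cd and Lat2 stood at 1.02, 0.79, 0.92 and 0.89, all without overlap.

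Genes that respond to interferon-gamma did not share this pattern. Of 17 tested 11 were above 0, with a median of 0.15 that ran from -0.10 without deletion tumor 2 to 0.34 without deletion tumor 3. It was 0.03, 0.33 and 0.06 without deletion stroma 1, 2 and 3. Gbp5 and Tap2 stood at 0.92 and 0.53, with groups apart. Ido1, a tryptophan-degrading enzyme, went the other way with 6.96, 4.90 and 5.42 in stroma and 8.38, 6.15 and 6.75 in tumor. Its groups overlapped, but within each number the tumor sample was higher, and it passed with the block at -1.34.

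For 13 known STAT3 target genes the median was 0.16, and 0.04 without deletion tumor 1 or -0.15 without deletion stroma 1. The members split. Il10ra, the receptor chain for interleukin-10 on leukocytes, had 6.51, 6.84 and 6.71 in stroma and 5.44, 4.96 and 5.50 in tumor, a log2 difference of 1.39 ± 0.25 (SE). Lrg1, a secreted acute-phase glycoprotein, had 8.31, 7.88 and 8.63 against 9.64, 9.89 and 9.92, or -1.54. Reg3g, an antibacterial lectin of gut epithelium, had 10.41, 8.09 and 9.73 against 11.75, 10.88 and 11.01, or -1.80. The groups were apart in all 3 and all passed with the block, the leukocyte receptor higher in stroma and the 2 secreted proteins lower. Socs3, the feedback inhibitor induced by STAT3, had 8.25, 7.54 and 7.32 against 7.39, 7.61 and 7.73, a difference of 0.13.

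**Figure D4:**
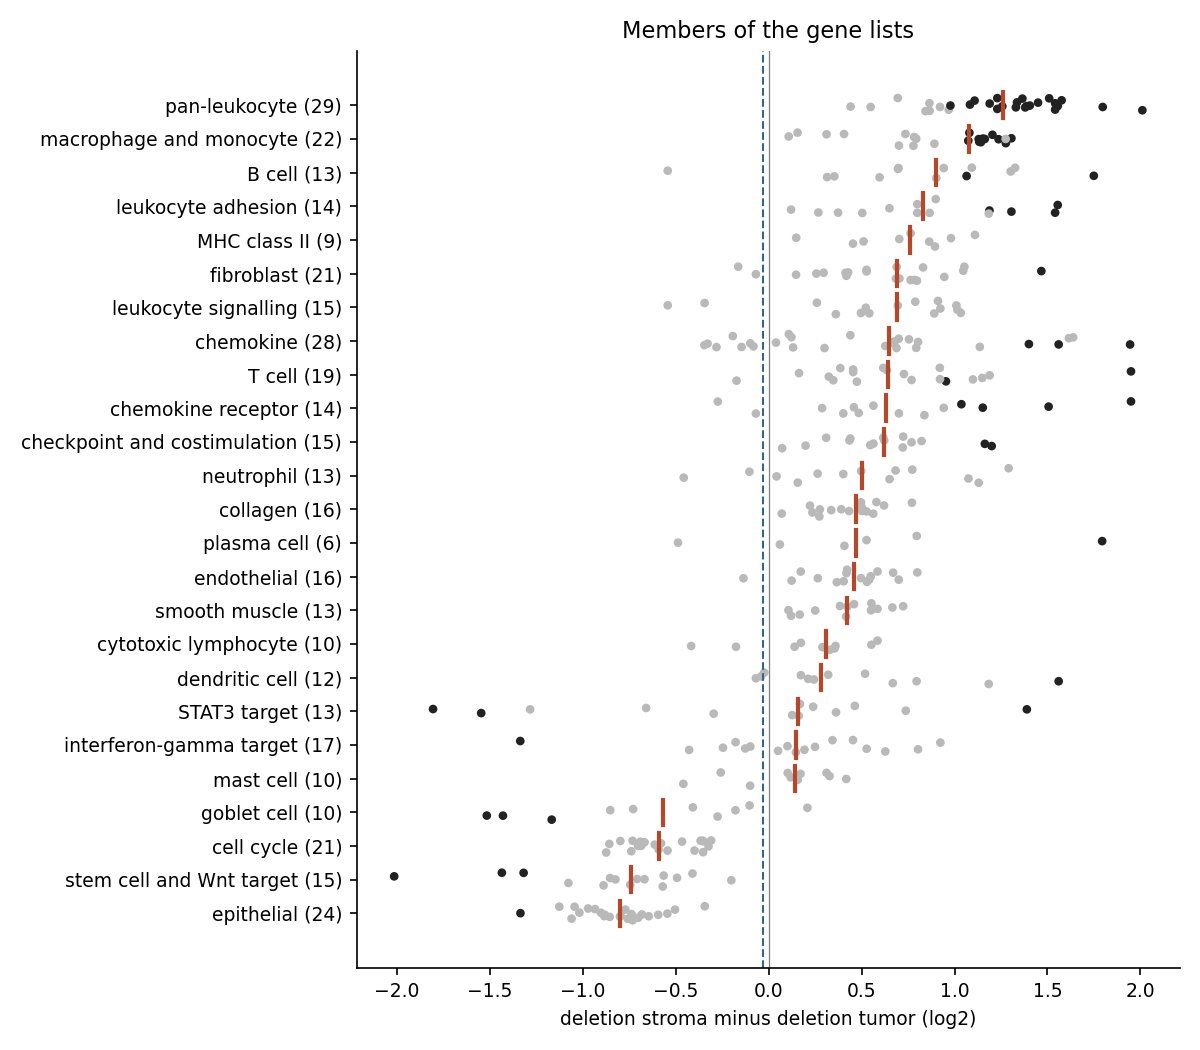
Log2 differences, deletion stroma minus deletion tumor, of the tested members of the larger lists, 1 point a gene, black where it passed with the block, with the list median as a bar and the median of all genes as a dashed line. All 29 pan-leukocyte and 22 macrophage and monocyte genes lie right of 0, and all 24 epithelial, 15 stem cell and Wnt target and 21 cell cycle genes lie left of it.

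On the tumor side, all 24 epithelial genes were lower in deletion stroma, with a median log2 difference of -0.80. Groups were apart in 9, against 7.16% of all genes. An unadjusted p under 0.05 was found for 18, against 5.6%, and 1 passed with the block, against 0.258%. For this and the other lists lower in stroma, 9058 of all 16635 genes were below 0. The median was -1.08 without deletion stroma 1 and -0.48 without deletion stroma 2, the sample lowest in epithelial genes. Krt18, a keratin of simple epithelia, had 8.39, 7.72 and 8.58 in stroma and 9.07, 9.69 and 9.93 in tumor, a log2 difference of -1.33 ± 0.27 (SE). It was the member that passed with the block. Epcam, Elf3 and Cldn3, of cell adhesion, epithelial transcription and tight junctions, stood at -1.12, -1.06 and -1.04, with no overlap. In Epcam, stroma 1 and 3 had 7.77 and 8.01 and the lowest tumor sample 8.26, while stroma 2 had 6.84. All 3 stroma samples stood above 3.65, the limit under which genes were left out as dim.

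Goblet cell genes, of mucus secretion, had a median of -0.57, or -0.86 without deletion stroma 1 and -0.20 without deletion stroma 2. Spink4, a protease inhibitor of goblet cells, had 9.33, 8.69 and 10.18 against 10.37, 10.92 and 11.19, or -1.43. Agr2, a disulfide isomerase needed for mucin, stood at -1.17, and Retnlb, a resistin-like factor, at -1.52 with 7.40, 4.96 and 4.56 in stroma and 9.15, 6.29 and 6.02 in tumor. These 3 of 10 passed with the block, against 0.258% of all genes as lower in stroma. In Retnlb both samples numbered 1 were high, so the groups overlapped although each tumor sample exceeded the stroma sample of its number. Clca1, at 0.21, was the goblet gene above 0.

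Stem cell and Wnt target genes are known from crypt cells, and which cells carried them in these samples was not measured. All 15 tested were lower in deletion stroma, with a median of -0.74. Groups were apart in 4 (7.16% of all genes), 6 had an unadjusted p under 0.05 (5.6%) and 3 passed with the block (0.258%). Sox9, a transcription factor of crypt progenitors, had 6.47, 6.65 and 7.03 in stroma and 7.39, 8.21 and 8.50 in tumor, a log2 difference of -1.32 ± 0.36 (SE). Nkd1, a Wnt feedback gene, had 3.27, 5.94 and 5.51 against 5.78, 7.23 and 7.75, or -2.01. Notum, an enzyme that inactivates Wnt proteins, had 3.98, 5.74 and 5.94 against 5.08, 7.09 and 7.80, or -1.43. Those 3 passed with the block. In Nkd1 and Notum the samples numbered 1 were the lowest of their tissue. Lgr5, the receptor of crypt stem cells, stood at -0.56 with 5.57, 5.75 and 6.11 against 6.05, 6.55 and 6.53. A dimmer second probe set gave -0.69 for Notum and another gave -1.04 for Lgr5, so the sizes of these differences depend on the probe set. The median of the list was -1.30 without deletion tumor 1 and -0.47 without deletion tumor 3.

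All 21 cell cycle genes were lower in deletion stroma, with a median of -0.59. An unadjusted p under 0.05 was found for 10 (5.6% of all genes), 4 had groups apart (7.16%) and 0 passed with the block (0.258%). Cdc20, an activator of the anaphase-promoting complex, had 5.73, 5.62 and 6.44 against 6.50, 6.80 and 7.10, and Cdk1, the mitotic kinase, had 5.49, 5.95 and 5.81 against 6.02, 6.52 and 7.27. Deletion tumor 3 was the highest tumor sample for 20 of the 21 genes, and the median was -0.37 without it. Among genes with groups apart and an unadjusted p under 0.01, the largest negative differences were those of Ang4, a Paneth cell antimicrobial ribonuclease (-1.99), and Mmp7, a matrix protease of gut epithelium (-1.98). Mmp7 had 6.10, 7.08 and 6.66 in stroma and 7.35, 9.32 and 9.09 in tumor, and a dimmer second probe set of the gene gave -0.62. Wfdc18, Krt36, Mfsd2a, Trim31, Gmds and Ect2 followed beside genes already given, from -1.67 to -1.33, and passed with the block, while Pla2g10os at -1.47 did not. Of the 43 genes that passed with the block as lower, 7 were on the epithelial, goblet cell, stem cell and Wnt target or cell cycle lists. Tac1, which encodes the neuropeptide substance P, was another and was named after its values were seen, with 4.94, 4.99 and 5.60 in stroma and 5.48, 6.77 and 7.70 in tumor. Its difference was -1.47, and -2.06 without deletion tumor 1.

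Genes of the structural stroma were mostly above 0 too, with medians below that of the pan-leukocyte list. Of 21 fibroblast genes 19 were above 0, with a median of 0.69, 8 with groups apart, 6 at an unadjusted p under 0.05 and 1 with the block. Dcn, the collagen-binding proteoglycan decorin, had 9.54, 10.40 and 9.50 in stroma and 7.99, 8.69 and 8.36 in tumor, a log2 difference of 1.47 ± 0.42 (SE), and was the one that passed. Vim, the mesenchymal intermediate filament that leukocytes also express, stood at 0.83, and S100a4, a calcium-binding protein of fibroblasts and macrophages, at 1.05. Postn, a matrix protein of activated fibroblasts, had 4.92, 6.65 and 7.59 in stroma and 4.38, 5.96 and 7.54 in tumor. Postn followed the sample number in both tissues, and its difference of 0.43 was small beside that spread. Pdgfra stood at -0.07.

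All 16 collagens were above 0, with a median of 0.47, or 0.21 without deletion stroma 2. The basement membrane chains Col4a1 and Col4a2 had groups apart, at 0.56 and 0.58, as had Col5a1 and Col5a2 at 0.43 and 0.50. The fibrillar collagen Col1a1 had 9.64, 10.65 and 9.66 against 9.75, 9.56 and 9.12, so that stroma 2 alone stood above the tumor samples. All 13 smooth muscle genes were above 0, with a median of 0.42, or 0.27 without deletion stroma 2, 4 with groups apart and 0 with an unadjusted p under 0.05. Of 16 endothelial genes 15 were above 0, with a median of 0.46, or 0.68 without deletion stroma 1. Pecam1, an adhesion molecule of endothelium and leukocytes, had 6.31, 7.02 and 7.17 in stroma and at most 6.09 in tumor, and Erg, an endothelial transcription factor, stood at 0.42. Those 2 were the endothelial genes without overlap. At an unadjusted p under 0.05 there were 8 of the 16 endothelial genes and 3 of the 16 collagens, against 4.08% of all genes, and 0 collagen, smooth muscle or endothelial genes passed with the block.

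Other lists served to judge the capture. Of 7 glia and neuron genes the median was 0.00, with Uchl1 and Ret, the 2 with the smallest p, at 0.37 and -0.26. Of 3 adipocyte genes, Fabp4, a fatty acid carrier also present in endothelium and macrophages, stood at 1.11 and Retn at 0.13, with a list median of 0.12 that was -0.02 without deletion tumor 3. The erythroid gene tested, Slc4a1, stood at 0.18. Of 9 housekeeping genes 8 were below 0, with a median of -0.38, or -0.11 without deletion tumor 3 and -0.22 without deletion stroma 2. The epithelial, cell cycle and housekeeping medians of deletion tumor 3 were the highest of its group, and its values had the widest spread, with a standard deviation (SD) of 1.85 against 1.65 and 1.72 in tumor 1 and 2. The part of that spread in the results was tested as a covariate in the fit, where 114 genes passed and the pan-leukocyte median was 1.36.

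The same tissue difference could be set against wild type, with its own 3 stroma and 3 tumor samples. Over the pan-leukocyte list the wild type median was 0.49, with 28 of 29 genes above 0 and 10 with groups apart, against 8.88% of all genes in that comparison. An unadjusted p under 0.05 was also found for 10, against 5.12%. The difference between genotypes, deletion minus wild type, was above 0 for all 29 genes, against 52.5% of all genes, with a median of 0.76. Of the 29, 7 had an unadjusted p under 0.05, against 2.41%, and 0 passed the adjusted threshold, where the smallest adjusted p in limma was 0.995. No gene of the 16635 passed for this difference in those fits, with or without the block, and 401 had an unadjusted p under 0.05, so that the difference between the genotypes is not shown for any single leukocyte gene. By sample, the centred pan-leukocyte median was -0.22, -0.14 and 0.44 in wild type stroma and -0.53, -0.49 and -0.28 in wild type tumor. The tumor samples of the genotypes covered nearly the same range, and the 3 deletion stroma samples, at 0.60 to 1.01, lay above all 3 wild type stroma samples.

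Cd53 had 5.05, 4.88 and 5.65 in wild type stroma and 4.66, 4.50 and 5.28 in wild type tumor, a log2 difference of 0.38 against 2.01 in the deletion. The difference of the differences was 1.63 ± 0.40 (SE, 95% interval 0.79 to 2.48, not adjusted for the number of genes). The limma adjusted p of this difference was 0.995, and 0.399 with the block. Cd86 had 3.82, 3.51 and 3.83 in wild type stroma and 3.75, 3.88 and 3.74 in wild type tumor, values near the limit for dim genes. Its difference of -0.07 in wild type against 1.16 in the deletion is given as a description, since it passed the filter only through deletion stroma. Phf11b stood at 1.27 and the antisense transcript Tbx3os2 at 1.32. On the other side were Ido2, a relative of Ido1 (-1.25), the receptor kinase Tyro3 (-0.85), the germ cell gene Dppa5a (-1.15) and the replication licensing gene Cdc6 (-0.77). With array weights Cd53, Cd86 and Phf11b passed, together with the olfactory receptor gene Olfr452. The means of Olfr452 were 3.474 in wild type stroma, 3.819 in wild type tumor and 3.325 in deletion tumor, against 4.518 in deletion stroma. Like Cd86 it passed the filter only through deletion stroma, so the calls of Cd86 and Olfr452 support nothing. Cd53 and Phf11b passed for this difference with array weights alone.

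List by list, the medians of the genotypes were as follows, and differences between lists were not tested. The counts of genes with a difference between genotypes above 0 stand against 52.5% of all genes. For macrophages and monocytes the median was 1.08 in the deletion and 0.37 in wild type, with the difference between genotypes above 0 for 21 of 22 genes. For B cells it was 0.90 and 0.47, with 11 of 13 above 0, and for T cells 0.64 and 0.51, with 13 of 19 above 0. For dendritic cells it was 0.28 and 0.37, with 6 of 12 above 0, and for cytotoxic lymphocytes 0.31 and 0.28, with 4 of 10 above 0. For epithelial genes the medians were -0.80 and -0.96, for stem cell and Wnt targets -0.74 and -0.96, for fibroblasts 0.69 and 0.46 and for collagens 0.47 and 0.62. The genes above 0 in these lists were 16 of 24, 9 of 15, 11 of 21 and 3 of 16. Goblet cell genes were at -0.57 in the deletion and -1.20 in wild type, with 6 of 10 above 0. Single leukocyte genes varied. Ccr7, Ccl5 and Ccl22 had groups apart in wild type as well, at log2 differences of 1.245, 1.190 and 1.424. Cd48, Plek and Cxcr6 overlapped in wild type, at 0.106, 0.296 and -0.071. These genes were picked with their values known. Wild type stroma 3 had a macrophage and monocyte median of 0.99, above -0.49 and -0.07 in wild type stroma 1 and 2 and above all 3 deletion stroma samples.

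**Figure D5:**
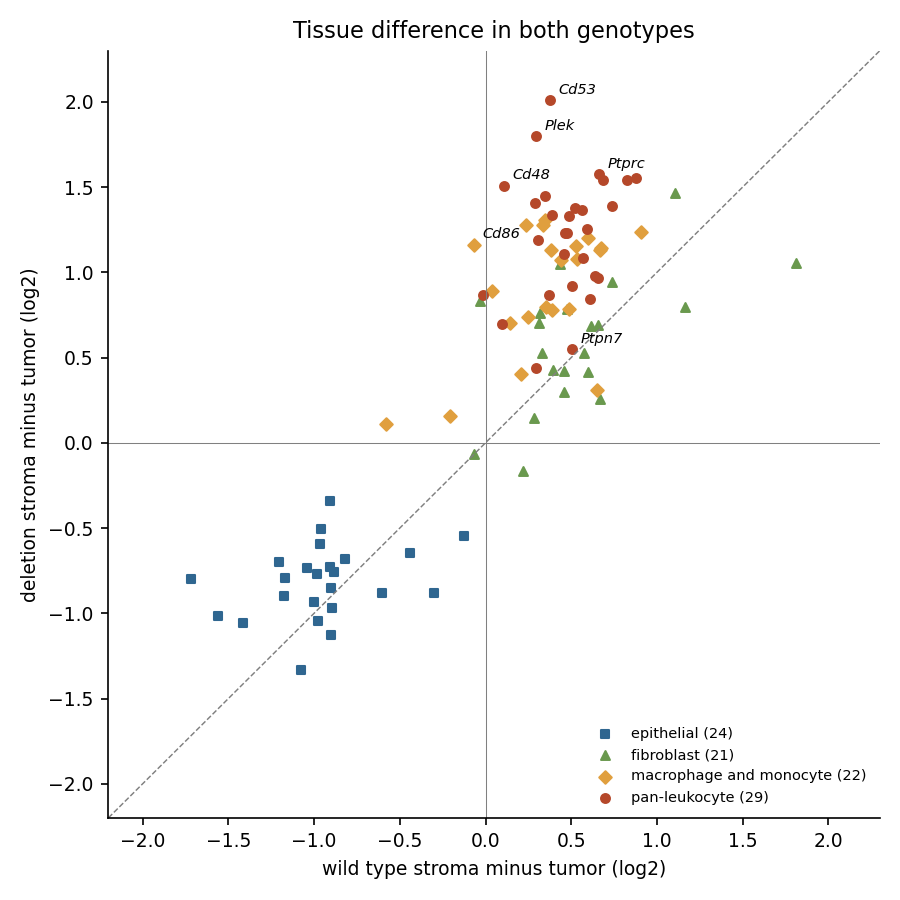
The log2 difference, stroma minus tumor, in wild type on the horizontal and in the deletion on the vertical axis, 1 point a gene of 4 lists, with the line of equality dashed. Pan-leukocyte genes lie above the line of equality, with Cd53 at 0.38 in wild type and 2.01 in the deletion, and epithelial genes lie below 0 on both axes.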

How the data were processed

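Per the labels' protocols, RNA of microdissected paraffin tissue was isolated with a kit for fixed tissue, amplified and hybridised to single-colour Affymetrix arrays. The authors deposited log2 values of 41345 probe sets, computed by robust multi-array average (RMA). The submitters' processing notes name Affymetrix Expression Console, version 1.3.1. RMA corrects background and equalises the arrays at the probe level, and array SDs still ran from 1.60 to 1.91. Of the genome build and probe locations, nothing was stated. The values were used as deposited.

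The platform annotation gave 23521 probe sets 1 symbol and 1814 several, and 16010 were not listed. Among probe sets of 1 gene, that of highest mean signal across all 12 arrays was used. The 25% of genes with means below 3.65 were left out. limma 3.58.1 (R 4.3.3) fitted 4 group means over 12 arrays, without a replicate block, with eBayes and Benjamini-Hochberg adjustment over 16635 genes. The fit was tested on simulated data. Of 464 list names 428 had a probe set and 400 were tested. No 2 arrays held identical values, and the number of arrays limits the precision.

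Members, lists and the naming rule were chosen with earlier results of these data known. The rule named Stat3, the 12 largest differences each way at p under 0.01 without overlap, all pan-leukocyte genes, and the members of smallest p of other lists (4, or 2 for minor lists). It also took the 4 genes of smallest p each way for the genotype difference. Predicted genes, olfactory receptors, small RNAs and receptor segments were passed over. Members named to show a list's exceptions or sample pattern were chosen after their values were seen.

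As to pairing, deviations of equally numbered deletion samples from their group means correlated at 0.12, 0.16 and 0.30. All were above 0.1, so the numbers were taken to pair the deletion samples, from the values and not from the labels. Deletion tumor 1 correlated equally (0.12) with stroma 2, and the wild type pairs gave 0.44, 0.00 and 0.51. Array spread also followed the number, narrowest for 1 and widest for 3 in both deletion tissues.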

Additional observations from a re-analysis of the deposited data

How the results depend on the processing

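The genes called in the deletion (0 of 16635) depended on the setting, and the cause was not tested. The count was 152 with the replicate block, 62 with it as a random block, 33 after quantile normalization, 727 with array weights and 114 with array spread as a covariate. It was 93 with the block on the 6 deletion arrays, a choice made after seeing the data, as were the blocks without pair 1 (843), pair 2 (0) and pair 3 (36). Leaving out 1 sample gave 0 to 22. The highest was without wild type stroma 3, followed by 13 without deletion stroma 1, 2 (Mmp7 and Tac1) without deletion tumor 1 and 1 (Cd53) without wild type tumor 3. The genotype difference had 4 calls with array weights and 0 in the other settings. The weights were 7.8, 0.836 and 0.258 in wild type tumor 1, 2 and 3 and 0.459, 4.08 and 0.367 in deletion tumor 1, 2 and 3. In each tumor group 1 array therefore carried most of the weight, which limits the calls of that setting.

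List medians moved as follows. With 50% of the genes left out as dim they were 0.66 for dendritic cells, 0.37 for mast cells, 0.46 for chemokine receptors, -0.26 for glia and neurons and 0.58 for adipocytes. With array weights they were 0.15 for cytotoxic lymphocytes and 0.39 for chemokines. With the spread covariate they were 0.13, 0.46, 0.86 and 0.90 for cytotoxic lymphocytes, chemokines, leukocyte signalling and fibroblasts. With the block and without pair 1 they were 0.75, 0.15, 0.88, -1.31 and -0.13 for plasma cells, chemokines, signalling, epithelium and STAT3 targets. Without pair 2 fibroblasts had 0.47, and without pair 3 glia and sex-linked genes had -0.23 and 0.26. Leaving out 1 sample gave 0.20 to 0.65 for chemokines, 0.53 to 0.82 for their receptors, -1.30 to -0.47 for stem cell and Wnt targets and 0.11 to 0.39 for cytotoxic lymphocytes. It gave -0.49 to -0.11 for housekeeping, 0.59 to 0.90 for signalling, 0.37 to 0.68 for endothelium, -0.15 to 0.23 for STAT3 targets, 0.47 to 0.76 for fibroblasts and 0.21 to 0.60 for collagens.

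Differences near 0 changed sign. Leaving out 1 sample gave up to 0.63 for Hdc, 0.29 for Retn and 0.99 for Xist, each without deletion stroma 3. Stat3 was 0.07 after quantile normalization, 0.05 with weights, 0.21 with the covariate, 0.18 without deletion tumor 3 and 0.16 with the block without pair 3. Epx was -0.01, -0.08 and -0.16 in the first 3 of these settings and 0.00 with centred arrays, -0.08 without deletion tumor 3, -0.05 without deletion stroma 1 and -0.03 without deletion stroma 2. Retn was -0.01 with weights and -0.02 without deletion tumor 3, and Slc4a1 -0.03 with the covariate. Siglecf was 0.02 without deletion tumor 1 and 0.09 without deletion stroma 3. Hdc was -0.27 without deletion stroma 1 and -0.13 with the block without pair 1. Kit was -0.06 with the block without pair 2, and Xist -0.16 without deletion stroma 1. The other genes of the naming rule kept their direction. Signal over background was not used here.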

Other observations

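Xist, transcribed from the inactive X chromosome of females, had 6.30 in deletion stroma 1 and 4.96 in deletion tumor 1. The other 10 samples of the series lay between 3.12 and 4.13. The 4 sex-linked genes tested had a median log2 difference of -0.22 in the deletion, which was -0.57 without deletion tumor 1, -0.11 without deletion stroma 2 and 0.15 without deletion tumor 3. Both samples numbered 1 of the deletion therefore stood above the rest for this gene. Of 17824 probe sets without a single gene symbol, 9208 passed the same limit on dim signals. In the tissue difference of the deletion 0 of these passed an adjusted p of 0.05 in limma, with or without the block, and 616 had an unadjusted p under 0.05.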
